A study of Homo sapiens with 8 samples.

Results

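Antisense long non-coding RNAs, 307 genes of the 62086 in the deposited count table, were followed in human embryonic stem cells (hESCs) whose MFG-E8 had been neutralized. A gene was taken as antisense when its symbol ended in -AS and a number, and it was kept when its raw count averaged at least 100 over the 8 libraries. The members were thus selected on their level in these libraries, with antibody and IgG libraries counted alike, so a member near the limit could be admitted by the group in which it was high. Of the 307, 6 averaged 100 counts in the anti-M8nAb libraries only and 19 in the IgG libraries only, and the rule bears on the direction of change of these members. Of 1811 such symbols, 1504 fell under that level. The members just inside it were PPP1R35-AS1 with a mean count of 100.9, SMAD1-AS1 with 102.5 and PRDM4-AS1 with 102.6, and the nearest genes outside were ZNF32-AS2 with 98.1, FAM13A-AS1 with 97.9 and LIPE-AS1 with 97.4. The cells were of the line BG01, grown in mTeSR medium, and each group had 2 libraries. The groups were anti-M8nAb for 12 h, isotype IgG for 12 h, anti-M8nAb for 24 h and isotype IgG for 24 h. Anti-M8nAb is an antibody that neutralizes MFG-E8, a secreted glycoprotein that bridges phosphatidylserine on membranes to integrins on cells, the control was normal mouse IgG, and both were given at 5 µg/mL. No genotype differed between the groups, and 1 line of cells was used.

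Antisense genes are transcribed from the strand opposite another gene, and each symbol here names that gene, called its partner below. Some such RNAs are known to act on transcription, splicing or stability of the partner's RNA, while others act elsewhere in the cell or have no known role. Where the exons of both genes cover the same bases, a read can be given to one gene or the other only if the counting uses the strand of the read.

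A library held 21010400 to 21792716 counts over genes. Every member had counts in all 8 libraries, the lowest being 34 in 1 library, and the mean count of a member lay between 100.9 and 27866 with a median of 273. Pluripotent markers were high in every library, with POU5F1 between 1309 and 1570 CPM (TMM-scaled counts relative to library size), SOX2 between 196 and 257 CPM and NANOG between 89.0 and 128 CPM. The 7 pluripotent genes listed summed to 5490 to 5552 CPM in anti-M8nAb against 4917 to 5017 CPM in IgG at 12 h, and to 5087 to 5180 CPM in anti-M8nAb against 4619 to 4626 CPM in IgG at 24 h. A list of 5 fibroblast genes summed to 510 to 541 CPM in anti-M8nAb against 454 to 456 CPM in IgG at 12 h. At 24 h the sums were 620 to 647 CPM in anti-M8nAb against 512 to 525 CPM in IgG. Most of this was THY1 (388 to 565 CPM), which hESCs also carry, and COL1A1 was at 60.2 to 83.9 CPM. The others were near 0, as COL3A1 did not pass 0.723 CPM, DCN 0.589 CPM and LUM 0.294 CPM. Other cell types stayed low over all libraries, at 12.1 to 19.7 summed CPM for 4 neural genes, 0.196 to 2.35 for 3 mesoderm genes, 0.877 to 3.24 for 3 endoderm genes and 15.7 to 20.7 for 3 trophoblast genes. At 24 h the neural sum was 12.1 to 13.2 CPM in anti-M8nAb against 15.5 to 17.9 CPM in IgG and the endoderm sum 0.877 to 1.02 CPM in anti-M8nAb against 2.47 to 3.24 CPM in IgG. The anti-M8nAb libraries at 12 h held more counts on pseudogenes (3518 and 5221 CPM) than the other 6 libraries (2397 to 2791 CPM), and the part of these markers and pseudogenes in the results was not tested. In bulk RNA, fewer cells of a type and less RNA per cell cannot be told apart. The labels call the libraries of a group biological replicates but do not say whether they came from separate cultures, so p-values speak only to the spread of these libraries.

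Most members had exon bases in common with a gene of the opposite strand, and members inside the exons of a partner mostly had more counts per kilobase than the partner. By the GENCODE annotation of GRCh38, 299 of 307 members had at least 1 exon base that was also exon of an opposite gene, the median share was 20.7%, and 66 members shared 50% or more. Only 8 members shared no base and 12 shared under 1%. The 18 members that lay at least 80% inside exons of the partner had a median of 1.97 times the counts per kilobase of that partner (0.681 to 3.90). Since these members passed a minimum count, the same was asked of antisense genes at any level, and 15 of 17 with a partner of at least 1000 mean counts reached 0.1 of its counts per kilobase (median 1.76). To size the overlap, the counts of each opposite gene were spread evenly over its exons and the number expected on the shared bases was set against the count of the antisense gene. This expected share was under 10% for 41 members, 10 to under 50% for 152 and 50% or more for 114, with a median of 34.8%. For 26 members it passed 100%, more than the whole count of the antisense gene. In 62 members the opposite gene that shared most was not the partner.

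**Figure D1:**
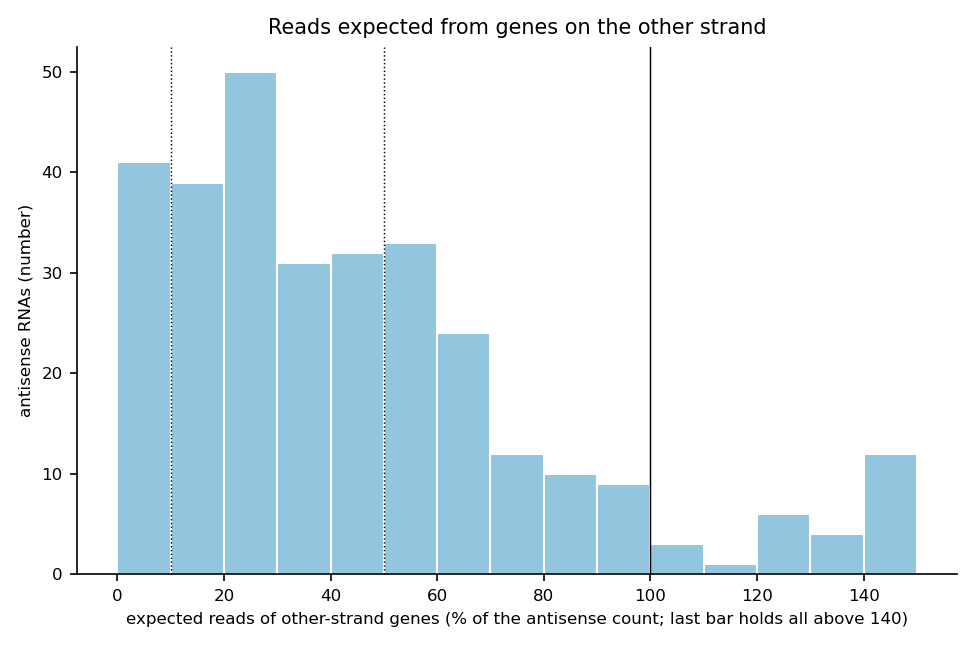
Number of antisense RNAs (vertical axis) by the reads expected from exons of genes on the other strand, in percent of the RNA's own mean count (horizontal axis, last bar all above 140%). The vertical lines at 10, 50 and 100% separate the 41 members under 10% from the 114 at 50% or more, of which 26 lie past 100%.

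Partners were matched for 305 members, which name 299 different genes, and MYL12-AS1 and SLC9A3R1-AS1 had no match. The starts of both genes overlapped in 118 pairs, the ends in 81, the antisense gene lay within its partner in 76 and spanned it in 24. Of the rest, 4 were divergent, 1 lay apart and 1, FAM131B-AS2, was annotated on the strand of its partner.

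A stretch of 4 members is printed to show what this sharing looks like, read on the strand of the antisense RNA, 5′ to 3′, from GRCh38. Capitals mark exon bases of the antisense RNA that are also exon of a gene on the other strand. Bases outside the exons of the antisense RNA are in lower case. The stretch of NECTIN3-AS1 is the first 150 bases of its first exon block of at least that length and holds no capital, that of WARS2-AS1 holds 100 among 150 bases, that of RUSC1-AS1 holds 126 among 186, and that of THBS1-AS1 is shared throughout its 185 bases. The capitals of RUSC1-AS1 are coding sequence of FDPS and not of RUSC1. Of the 186 bases printed for RUSC1-AS1, 151 are its exon, and some of the bases outside it are also exon of FDPS.
NECTIN3-AS1, chr3:111071240-111071389, minus strand: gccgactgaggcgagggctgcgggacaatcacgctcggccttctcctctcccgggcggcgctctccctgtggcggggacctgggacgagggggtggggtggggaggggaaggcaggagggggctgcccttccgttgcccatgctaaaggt
WARS2-AS1 (shared with WARS2), chr1:119140525-119140674, plus strand: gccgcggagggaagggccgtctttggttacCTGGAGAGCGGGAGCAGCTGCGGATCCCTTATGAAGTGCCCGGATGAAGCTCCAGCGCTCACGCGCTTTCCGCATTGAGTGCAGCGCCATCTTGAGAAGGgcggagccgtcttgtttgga
RUSC1-AS1 (shared with FDPS), chr1:155319773-155319958, minus strand: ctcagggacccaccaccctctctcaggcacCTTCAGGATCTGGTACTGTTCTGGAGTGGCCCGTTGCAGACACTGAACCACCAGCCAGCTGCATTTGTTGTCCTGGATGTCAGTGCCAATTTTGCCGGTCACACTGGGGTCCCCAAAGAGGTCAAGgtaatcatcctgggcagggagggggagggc
THBS1-AS1 (shared with THBS1), chr15:39588545-39588729, minus strand: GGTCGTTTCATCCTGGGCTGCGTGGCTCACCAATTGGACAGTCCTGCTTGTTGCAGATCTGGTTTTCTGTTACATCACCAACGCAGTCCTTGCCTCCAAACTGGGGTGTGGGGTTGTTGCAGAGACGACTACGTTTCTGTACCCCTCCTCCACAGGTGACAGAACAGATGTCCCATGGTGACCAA

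**Figure D2:**
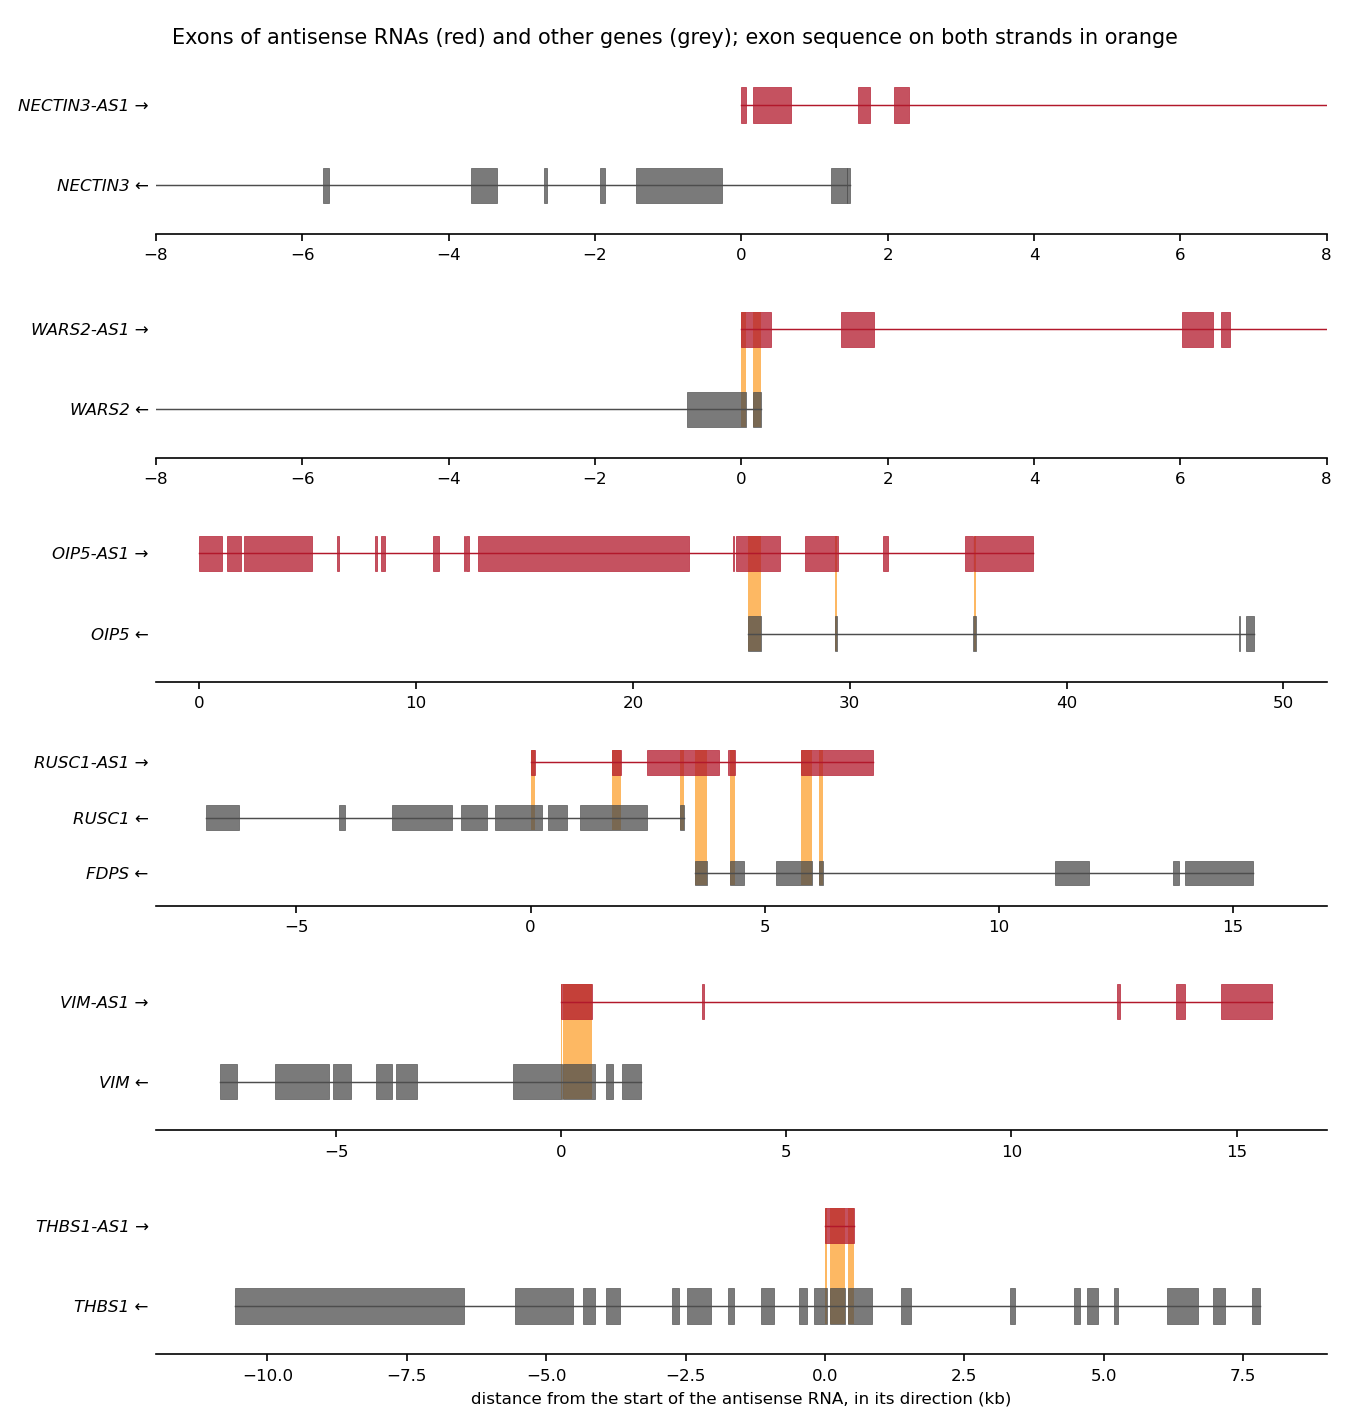
Exon maps of 6 antisense RNAs (red) and the genes beside them (grey), in kb from the start of each antisense RNA along its own direction, with exon sequence held on both strands in orange. NECTIN3-AS1 has no orange, OIP5-AS1 and WARS2-AS1 have little, and THBS1-AS1 has 78.1% of its bases in exons of THBS1.

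More members rose than fell after anti-M8nAb, most of all at 24 h. At 12 h, 47 members were higher and 37 were lower than in IgG by edgeR's quasi-likelihood test at an adjusted p under 0.05, against 15.8% of all 20165 genes tested called higher and 16.4% called lower. The members' own shares were 15.3% and 12.1%, so at 12 h they were close to the background or under it. At 24 h, 94 members were higher and 56 were lower, or 30.6% and 18.2% of them, against 21.2% and 21.3% of all genes. The 6 members over the count limit in anti-M8nAb libraries only gave 4 of these rises at 12 h and 6 at 24 h. The 19 over it in IgG libraries only gave 9 of the falls at 12 h and 12 at 24 h. The 282 over it in both gave 43 rises and 28 falls at 12 h, and 88 and 44 at 24 h. The median log2 fold change of the members was 0.03 at 12 h and 0.07 at 24 h, and that of all genes was 0.00 at both times. Changes were mostly small, since at least 2-fold was reached by 3 members up and 1 down at 12 h (all genes 3.4% and 2.97%) and by 11 up and 7 down at 24 h (4.76% and 4.84%). Among called members, the libraries of the groups were separate for all at 12 h, and at 24 h for 93 of 94 called higher and all 56 called lower (32.9%, 33.3%, 34.8% and 34.2% of all genes were separate, called or not).

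These counts depended on the scale and on single libraries. Of the called members, 56.0% were higher at 12 h and 62.7% at 24 h, but with the authors' FPKM and limma 38.5% and 45.6% were, with 25 rises and 40 falls at 12 h and 57 rises and 68 falls at 24 h. Over all genes the share of calls that were higher was 49.2% and 49.8% in counts and 35.0% and 35.1% in FPKM. Without IgG 12 h replicate 1, 27 members rose and 21 fell at 12 h, and with IgG 12 h replicate 2 left out 22 fell. Leaving out anti-M8nAb 12 h replicate 2, the library with the most pseudogene counts, gave 37 rises and 30 falls. At 24 h, leaving out a library gave 68 to 97 rises and 44 to 56 falls.

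The summed level of the members was higher in the antibody libraries at both times. It was 10543 and 10577 CPM in anti-M8nAb at 12 h, against 9937 and 9941 CPM in IgG at 12 h, and 10735 and 10724 CPM in anti-M8nAb at 24 h, against 9548 and 9698 CPM in IgG at 24 h. All 4 antibody libraries lay above all 4 IgG libraries. Abundant members weigh most in this sum, such as TUBA1B-AS1 with a mean count of 27866 against a median of 273 over members. The sum can also take in reads of opposite genes, with an expected share of 53.6% for TUBA1B-AS1 and 69.5% for PCBP1-AS1. Of the 307 members, 40 (13.0%) were called higher and 24 (7.82%) lower at both times, against 10.1% and 10.7% of all genes tested. None was called in opposite directions at the times, which 86 and 77 of all 20165 genes were (0.426% and 0.382%). At 24 h alone 54 (17.6%) were called higher and 32 (10.4%) lower, against 10.7% and 10.2% of all genes, and at 12 h alone 7 (2.28%) and 13 (4.23%), against 5.34% and 5.28%. In 137 members (44.6%, all genes 46.9%) no call was made at either time.

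Other lists gave other shares. All genes tested had 15.8% rises and 16.4% falls at 12 h, and 21.2% and 21.3% at 24 h. The 291 partner genes tested had 76 rises (26.1%) and 65 falls (22.3%) at 12 h. At 24 h they had 91 rises (31.3%) and 88 falls (30.2%), so their share of rises was close to the members' 30.6%. Their median log2 fold changes were 0.03 at 12 h and -0.01 at 24 h. Divergent transcripts, whose symbols end in -DT and of which 81 passed the same count, had 14 rises and 8 falls at 12 h, and 16 rises and 13 falls at 24 h. Of the antisense symbols under the count limit, 558 could be tested, with 37 rises (6.63%) and 36 falls (6.45%) at 12 h. At 24 h they had 54 rises (9.68%) and 42 falls (7.53%). None of these differences between lists was tested.

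Split by the expected share of opposite reads, the members with the least overlap leaned most towards higher levels. Among the 41 members under 10%, 12 rose and 1 fell at 12 h (29.3% and 2.44%, all genes 15.8% and 16.4%), and 16 rose and 7 fell at 24 h (39.0% and 17.1%, all genes 21.2% and 21.3%), with medians of 0.13 and 0.16. Among the 114 at 50% or more, 16 rose and 11 fell at 12 h, and 33 rose and 22 fell at 24 h (at 24 h 28.9% and 19.3%), with a median of 0.01 at both times. Among the 152 between these limits, 19 rose and 25 fell at 12 h (12.5% and 16.4%), and 45 rose and 27 fell at 24 h (29.6% and 17.8%). These classes were not tested against each other. The expected share leaves out introns of the partner, and reads from them were not sized. Such introns hold 24.9% of the exon bases of OIP5-AS1 and 16.2% of those of NECTIN3-AS1.

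NECTIN3-AS1 had the largest rise among members with no shared exon sequence. It is gene ENSG00000242242.7 on the minus strand of chromosome 3, from 110888384 to 111071553, and overlaps the start of NECTIN3, a cell adhesion protein of adherens junctions, without sharing an exon base. It stood at 57.6 and 45.9 CPM in anti-M8nAb at 12 h, against 30.3 and 26.6 CPM in IgG, and at 138 and 149 CPM in anti-M8nAb at 24 h, against 43.6 and 38.9 CPM in IgG. The groups did not overlap at either time, and the 24 h antibody libraries were the highest of all. The log2 fold change was 0.86 at 12 h (SE 0.09, edgeR adjusted p = 1.38e-10) and 1.80 at 24 h (SE 0.08, adjusted p = 1.33e-22). NECTIN3 itself moved far less, at 55.8 and 60.3 CPM in anti-M8nAb against 47.3 and 50.1 CPM in IgG at 12 h, and at 41.2 and 41.1 CPM in anti-M8nAb against 35.0 and 34.3 CPM in IgG at 24 h. Its log2 fold change was 0.25 at both times (edgeR adjusted p = 0.0114 and 0.0131).

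WARS2-AS1, which shares 1.40% of its exons with WARS2, the mitochondrial tryptophanyl-tRNA synthetase, more than doubled at both times. This gene, ENSG00000231365.7, lies on the plus strand of chromosome 1 from 119140391 to 119275973. Its level was 28.3 and 27.4 CPM in anti-M8nAb at 12 h, against 12.3 and 11.7 CPM in IgG, and 25.1 and 21.8 CPM in anti-M8nAb at 24 h, against 8.35 and 7.18 CPM in IgG. The groups were well apart, with log2 fold changes of 1.21 (SE 0.12, edgeR adjusted p = 2.53e-11) and 1.59 (SE 0.13, adjusted p = 2.1e-14). WARS2 rose too, by less, with log2 fold changes of 0.63 and 0.87 (adjusted p = 1.73e-05 and 5.34e-08). HLA-F-AS1, beside a non-classical class I gene of the major histocompatibility complex, had an expected share of 9.16% and rose by 1.14 and 1.16 on the log2 scale (SE 0.12 each, adjusted p = 4.17e-10 and 2.89e-11), while HLA-F rose by 0.52 and 0.42. Genes of this family are close in sequence, and how reads between them were divided is not known.

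GABPB1-AS1 and OIP5-AS1 were the most abundant of the members with little overlap that rose. GABPB1 encodes a subunit of an ETS-family transcription factor that controls genes for mitochondrial proteins. GABPB1-AS1 (ENSG00000244879.10, chromosome 15, plus strand, 50354944 to 50372202, expected share 5.41%) was at 138 and 127 CPM in anti-M8nAb at 12 h, against 98.8 and 85.4 CPM in IgG, and at 150 and 156 CPM in anti-M8nAb at 24 h, against 69.7 and 66.7 CPM in IgG. Every antibody library was above every IgG library, with log2 fold changes of 0.52 (SE 0.07, edgeR adjusted p = 1.85e-08) and 1.16 (SE 0.07, adjusted p = 6.11e-19). GABPB1 gave 0.28 at 12 h (adjusted p = 0.00729) and -0.07 at 24 h (adjusted p = 0.551). OIP5-AS1, known in zebrafish for a part in brain development, shares 3.39% of its exons with OIP5, a centromere protein. It stood at 328 and 326 CPM in anti-M8nAb at 12 h, against 231 and 240 CPM in IgG, and at 332 and 335 CPM in anti-M8nAb at 24 h, against 263 and 235 CPM in IgG. Its libraries separated by treatment at both times, and the log2 fold change came to 0.47 at 12 h and 0.42 at 24 h (SE 0.05 each, adjusted p = 8.9e-10 and 7.92e-09), while OIP5 gave -0.12 with no call at 12 h and fell by 0.27 at 24 h (adjusted p = 0.0202).

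**Figure D3:**
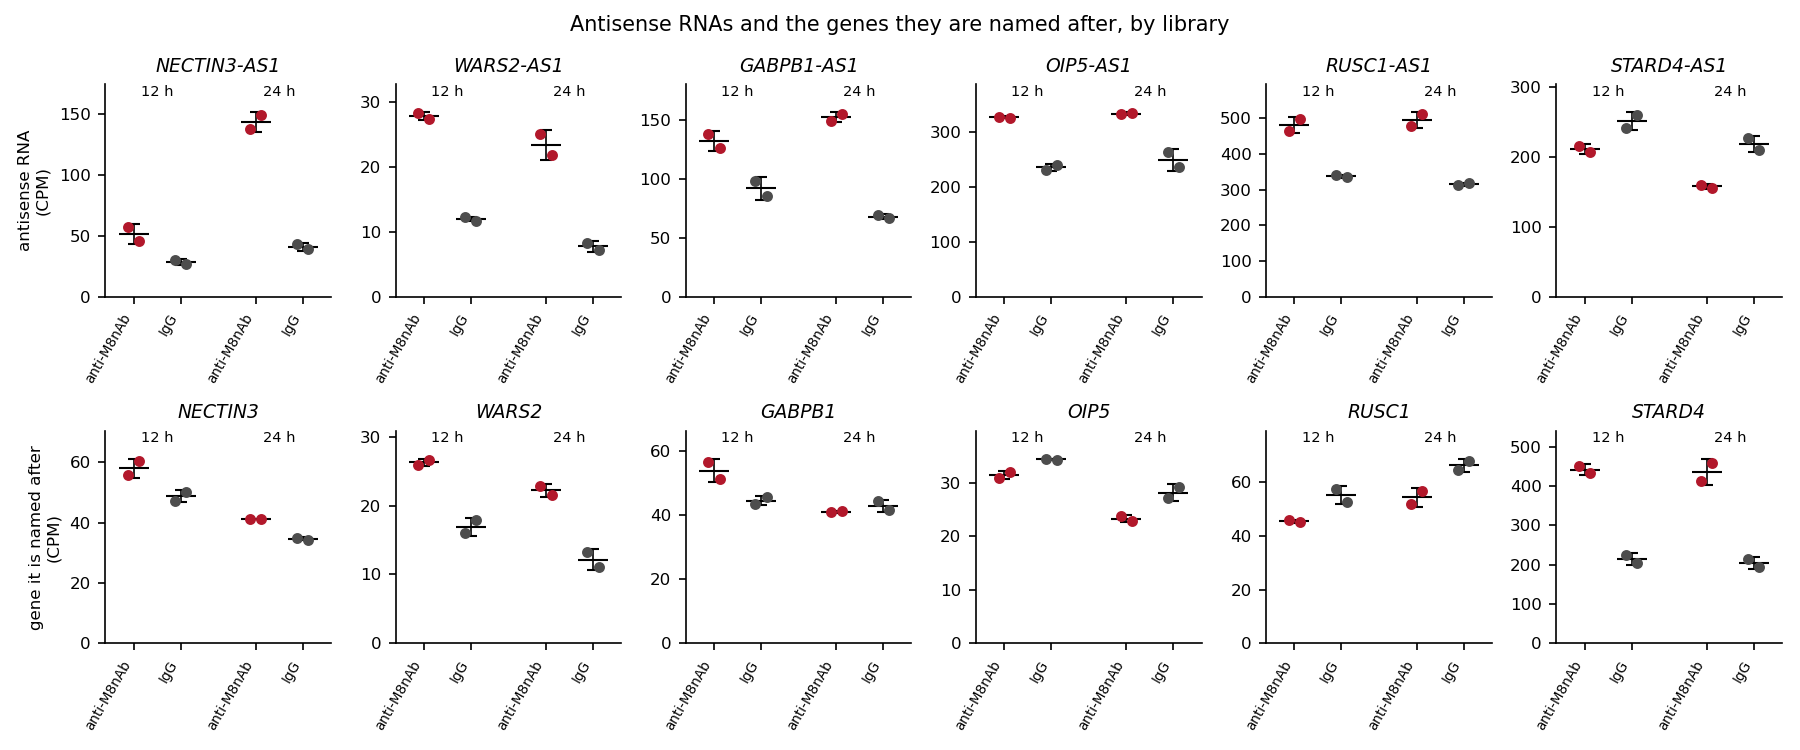
Levels in CPM of 6 antisense RNAs (upper row) and of the gene each is named after (lower row) at 12 and 24 h, with anti-M8nAb in red left of IgG in grey, a point for each library and a bar for the mean ± SD of 2 libraries. The antibody libraries of NECTIN3-AS1 at 24 h, at 138 and 149 CPM, stand above every other library, while NECTIN3 stays between 34.3 and 60.3 CPM throughout, and STARD4-AS1 is lower where STARD4 is higher.

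Other members without shared exons gave smaller or no changes. KLC1-AS1, which lies within the gene of a kinesin light chain, was at 6.77 and 6.80 CPM in anti-M8nAb at 12 h, against 4.47 and 4.46 CPM in IgG, and at 7.98 and 8.09 CPM in anti-M8nAb at 24 h, against 3.42 and 4.23 CPM in IgG. It rose by 0.60 and 1.07 on the log2 scale (SE 0.19 each, edgeR adjusted p = 0.0125 and 1.06e-05), and KLC1 by 0.21 and 0.20. KLC1-AS1 passed the count limit only through the antibody libraries (mean 91.8 counts in IgG). ZNF407-AS1 went the other way at 24 h alone, at 2.00 and 2.00 CPM in anti-M8nAb against 5.60 and 4.89 CPM in IgG (log2 fold change -1.39, SE 0.23, adjusted p = 2.05e-06). At 12 h its levels were 5.20 and 5.98 CPM in anti-M8nAb, against 6.22 and 6.67 CPM in IgG, with no call (adjusted p = 0.458). ZNF407-AS1 passed the limit only through the IgG libraries (mean 78.0 counts in anti-M8nAb). Over the 12 members that shared under 1%, 4 rose and none fell at 12 h, and 6 rose and 1 fell at 24 h. Of all genes, 15.8% rose and 16.4% fell at 12 h, and 21.2% rose and 21.3% fell at 24 h.

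Members that fell mostly did so beside a partner that fell too, 25 of 37 at 12 h and 41 of 56 at 24 h. SLC9A3-AS1, within the gene of a sodium-proton exchanger, fell most at 12 h, to 2.26 and 3.38 CPM in anti-M8nAb, against 8.89 and 6.07 CPM in IgG. At 24 h its levels were 2.87 and 2.78 CPM in anti-M8nAb, against 5.02 and 7.49 CPM in IgG, and the log2 fold change came to -1.41 at 12 h (SE 0.23, edgeR adjusted p = 4.6e-06) and -1.15 at 24 h (SE 0.23, adjusted p = 8.84e-05). Its groups did not overlap, and SLC9A3 gave -0.32 and -0.49 with no call. GRTP1-AS1, of a Rab GTPase-activating protein's gene, fell most at 24 h, to 2.43 and 2.48 CPM in anti-M8nAb, against 5.82 and 7.22 CPM in IgG (log2 fold change -1.40, SE 0.22, adjusted p = 1.05e-06), and GRTP1 fell by 0.82. SLC9A3-AS1 and GRTP1-AS1 averaged 58.0 and 64.2 counts in anti-M8nAb and passed the count limit only through the IgG libraries, as did KIF23-AS1 and ARHGEF19-AS1, described next. KIF23-AS1 fell by 1.22 at 24 h (SE 0.19, adjusted p = 1.3e-06). Its partner KIF23, a kinesin of the dividing cell's midbody, fell by 0.34. PAQR5, a membrane progestin receptor and the opposite gene with the most exon bases in common with KIF23-AS1, fell by 1.84. GAS6-AS1, opposite a secreted ligand of TAM receptors that like MFG-E8 binds phosphatidylserine, fell by 0.73 at 12 h and 0.89 at 24 h (SE 0.16 each, adjusted p = 0.000291 and 9.07e-06), and GAS6 by 0.63 and 0.86. ARHGEF19-AS1 lies wholly in exons of ARHGEF19, a guanine nucleotide exchange factor. It fell by 0.81 and 1.06, and ARHGEF19 by 0.77 and 0.99. Without IgG 12 h replicate 1 the 12 h call of ARHGEF19-AS1 was lost (-0.62, adjusted p = 0.0724), and without anti-M8nAb 12 h replicate 1 GRTP1-AS1, which had fallen by 0.75 at 12 h, had no call there (-0.54, adjusted p = 0.102).

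Several of the most abundant members had small log2 fold changes. TUBA1B-AS1, opposite a gene of alpha-tubulin, was at 1422 and 1359 CPM in anti-M8nAb at 12 h, against 1355 and 1295 CPM in IgG, and at 1238 and 1253 CPM in anti-M8nAb at 24 h, against 1237 and 1287 CPM in IgG. The groups overlapped at 24 h, and no call was made at either time (edgeR adjusted p = 0.216 and 0.758). PCBP1-AS1, MIF-AS1, TNS2-AS1 and RPL30-AS1 were also among the members with the highest counts, with log2 fold changes between -0.04 and 0.24. OIP5-AS1 and RUSC1-AS1, which were called higher at both times, were among them too. The expected shares of opposite reads were 53.6% for TUBA1B-AS1, 69.5% for PCBP1-AS1, 61.2% for MIF-AS1 and 58.7% for TNS2-AS1. In TNS2-AS1 the gene that shared most was EIF4B, a translation initiation factor, and not TNS2.

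Antisense RNAs and their partners mostly moved in the same direction. Of 297 pairs with both genes tested, 30 were called higher together and 25 lower together at 12 h, and 60 and 41 at 24 h. Opposite calls were made in 6 pairs at 12 h and 10 at 24 h, and in 22 and 33 pairs the member was called and the partner was not. The log2 fold changes had the same sign in 219 pairs (73.7%) at 12 h and in 231 (77.8%) at 24 h. Across the 297 pairs, Pearson's r was 0.563 and Spearman's rho 0.534 at 12 h, and 0.661 and 0.673 at 24 h. These describe pairs that share the same 8 libraries and, for most, exon sequence, and pairs are not independent replicates.

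Pairs with an expected share of opposite reads under 10% were the least alike. In the 110 pairs at 50% or more, Pearson's r was 0.705 at 12 h and 0.760 at 24 h, in the 148 pairs between the limits it was 0.592 and 0.689, and in the 39 pairs under 10% it was 0.373 and 0.481. Spearman's rho at 24 h was 0.696 at 50% or more, 0.723 between the limits and 0.535 under 10%. The sign was the same in 73.6% and 77.3% of pairs at 50% or more, in 79.1% and 81.8% between the limits and in 53.8% and 64.1% under 10%, so by these measures the upper classes were not in the order of overlap. The median absolute gap between the log2 fold changes of a pair was 0.11 at both times at 50% or more, 0.14 and 0.15 between the limits, and 0.39 and 0.33 under 10%. By position, r at 24 h was 0.870 in 76 pairs with the antisense gene within its partner, 0.832 in 80 with overlapping ends and 0.481 in 115 with overlapping starts. The part of shared reads in these values was not tested apart from the expected shares given here.

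**Figure D4:**
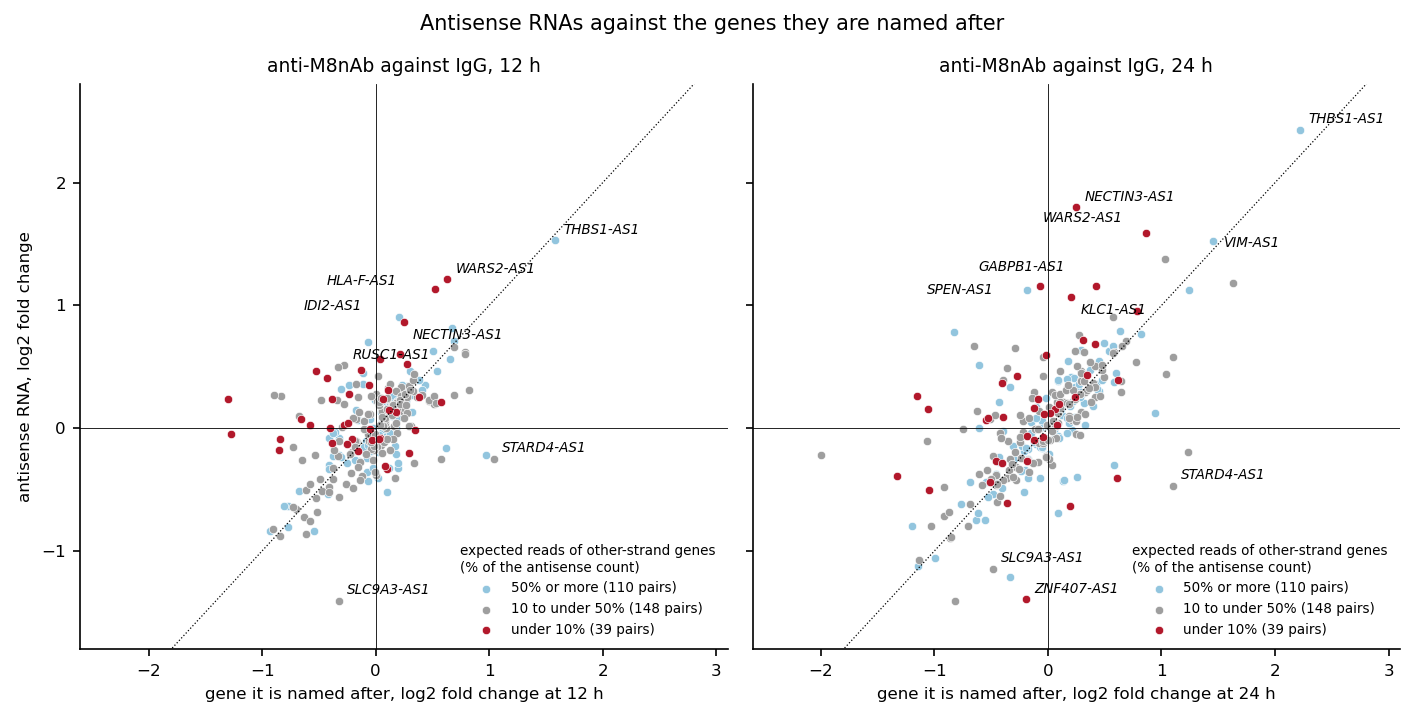
Log2 fold change of each antisense RNA (vertical axis) against that of the gene it is named after (horizontal axis) in 297 pairs at 12 h (left) and 24 h (right), coloured by the expected share of reads from the other strand. The 110 pairs at 50% or more keep close to the line of equal change, with a median gap of 0.11, and the 39 pairs under 10% scatter widely around it.

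THBS1-AS1 and VIM-AS1 belong to the pairs at 50% or more. THBS1-AS1 is a single exon of 526 bases (ENSG00000278621.1, chromosome 15, minus strand, 39588357 to 39588882) with 78.1% of its bases in exons of THBS1, the matricellular protein thrombospondin, and an expected share of 122%. It was at 6.38 and 4.68 CPM in anti-M8nAb at 12 h, against 2.26 and 1.56 CPM in IgG, and at 11.8 and 11.2 CPM in anti-M8nAb at 24 h, against 2.35 and 1.89 CPM in IgG. The groups were separate, and the log2 fold changes of 1.53 (SE 0.23, edgeR adjusted p = 1.16e-06) and 2.43 (SE 0.22, adjusted p = 7.82e-13) stood beside 1.58 and 2.22 for THBS1. THBS1-AS1 averaged 174.8 counts in the anti-M8nAb libraries and 44.8 in IgG and passed the limit only through the antibody libraries, so its place as the largest rise is a description. VIM-AS1 starts opposite VIM, the gene of the intermediate filament vimentin, and has an expected share of 58.1%. It was at 47.1 and 39.1 CPM in anti-M8nAb at 12 h, against 31.7 and 35.7 CPM in IgG, and at 109 and 98.7 CPM in anti-M8nAb at 24 h, against 33.3 and 38.9 CPM in IgG. It rose by 0.35 at 12 h (SE 0.09, adjusted p = 0.00214) and by 1.53 at 24 h (SE 0.09, adjusted p = 2.54e-19) on the log2 scale, and VIM by 0.43 and 1.45. The 12 h call of VIM-AS1 was lost without IgG 12 h replicate 1 (0.27, adjusted p = 0.0893) and without anti-M8nAb 12 h replicate 1 (0.22, adjusted p = 0.136).

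RUSC1-AS1 and STARD4-AS1 moved against their partners at both times and with another gene that shares their exons. RUSC1-AS1 (ENSG00000225855.7, chromosome 1, minus strand, 155316863 to 155324176) overlaps the start of RUSC1, an adaptor protein, and also FDPS, the farnesyl diphosphate synthase of the mevalonate pathway. It was at 466 and 497 CPM in anti-M8nAb at 12 h, against 340 and 334 CPM in IgG, and at 480 and 511 CPM in anti-M8nAb at 24 h, against 312 and 319 CPM in IgG. The antibody libraries were higher throughout, with log2 fold changes of 0.51 and 0.65 (SE 0.05 each, edgeR adjusted p = 1.72e-11 and 5.77e-15). RUSC1 fell by 0.28 and 0.29 (adjusted p = 0.00483 and 0.00185), and FDPS rose by 0.54 and 0.66. The reads expected from other strands, most of them of FDPS, came to 26.3% of the count of RUSC1-AS1, and with them subtracted its log2 fold changes were 0.51 and 0.66.

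STARD4 encodes a carrier of cholesterol between membranes, and it doubled while its antisense RNA fell. STARD4-AS1 (ENSG00000246859.3, chromosome 5, plus strand, 111510396 to 111739726) was at 216 and 207 CPM in anti-M8nAb at 12 h, against 242 and 260 CPM in IgG, and at 160 and 155 CPM in anti-M8nAb at 24 h, against 226 and 210 CPM in IgG. STARD4 was at 451 and 432 CPM in anti-M8nAb at 12 h, against 225 and 204 CPM in IgG, and at 413 and 460 CPM in anti-M8nAb at 24 h, against 215 and 193 CPM in IgG. Both genes kept their groups apart, in opposite order. STARD4-AS1 had a log2 fold change of -0.25 at 12 h (SE 0.06, edgeR adjusted p = 0.000399) and of -0.47 at 24 h (SE 0.06, adjusted p = 2.76e-09), and STARD4 of 1.04 and 1.10. NREP, a gene known in neuronal regeneration, fell by 0.31 and 0.55. It shares 2115 of the 9263 exon bases of STARD4-AS1, more than any other opposite gene (expected share over all opposite genes 26.0%). The 12 h call of STARD4-AS1 was lost without IgG 12 h replicate 2 (-0.19, adjusted p = 0.0625).

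Other opposite calls were made at 12 h, at 24 h or at both. At 12 h they were HDAC2-AS2 at 0.28 beside the histone deacetylase gene HDAC2 at -0.24, ARRDC1-AS1 at 0.41 beside ARRDC1 at -0.43, GNAS-AS1 at -0.33 beside GNAS at 0.20, and PPP1R12A-AS2 at -0.41 beside PPP1R12A, a subunit of myosin phosphatase, at 0.17. ARRDC1-AS1 has an expected share of 0.485%, and its partner is an arrestin-like protein of vesicle budding. It was at 32.2 and 31.6 CPM in anti-M8nAb at 12 h, against 23.6 and 24.5 CPM in IgG, and at 30.6 and 33.7 CPM in anti-M8nAb at 24 h, against 23.9 and 25.9 CPM in IgG. Its groups were separate, and both it (0.37 at 24 h, edgeR adjusted p = 0.00183) and ARRDC1 (-0.40, adjusted p = 0.0127) held their directions at 24 h. At 24 h, GNAS-AS1 at -0.40 beside GNAS at 0.26 was opposite again, and OIP5-AS1, TIRAP-AS1 (0.67 beside -0.65), IDI2-AS1 (0.78 beside -0.83), DUT-AS1 (0.52 beside -0.61), SPEN-AS1 (1.13 beside -0.19) and ELF3-AS1 (-0.30 beside 0.59) joined. The opposite gene that shares the most exon bases with IDI2-AS1 is IDI1, an isopentenyl diphosphate isomerase. IDI1 rose by 0.82 at 12 h and 0.55 at 24 h. Reads expected from it and other opposite genes were 130% of the count of IDI2-AS1. For DUT-AS1 this share was 126% and for GNAS-AS1 143%, while for TIRAP-AS1 it was 16.9%, with a log2 ratio to the partner that rose by 1.30 at 24 h (limma adjusted p = 0.0224).

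Several of these opposite calls did not outlast the loss of 1 library. HDAC2-AS2 at 12 h was lost without IgG 12 h replicate 1 (0.27, edgeR adjusted p = 0.0873) or without anti-M8nAb 12 h replicate 1 (0.24, adjusted p = 0.0856). GNAS-AS1 was lost at 12 h without IgG 12 h replicate 2 (-0.23, adjusted p = 0.182) and at 24 h without IgG 24 h replicate 2 (-0.27, adjusted p = 0.0626). PPP1R12A-AS2 at 12 h was lost without anti-M8nAb 12 h replicate 2 (-0.18, adjusted p = 0.384) or without IgG 12 h replicate 2 (-0.35, adjusted p = 0.0945). DUT-AS1 at 24 h was lost without IgG 24 h replicate 1 (0.38, adjusted p = 0.17) or without anti-M8nAb 24 h replicate 1 (0.26, adjusted p = 0.339).

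Whether an antisense RNA and its partner responded unequally was tested on the log2 ratio of their CPM in each library, with limma over 818 pairs of antisense genes at any level. The 818 pairs include the 297 member pairs, and the others have antisense genes under the count limit. All 818 are thus not a separate background. Over them, 26 ratios were called at 12 h (2.08% up and 1.1% down) and 54 at 24 h (4.28% and 2.32%). In the 297 member pairs the ratio rose in 10 and fell in 6 at 12 h, and rose in 19 and fell in 11 at 24 h. Leaving out a library gave 4 to 11 rises and 2 to 7 falls at 12 h, and 7 to 19 rises and 4 to 9 falls at 24 h. Each of the 4 libraries of a time, when left out, lowered both counts of that time by more than 1.5 times, to 4 to 6 rises and 2 to 3 falls at 12 h and to 7 to 12 rises and 4 to 5 falls at 24 h. STARD4-AS1 had the smallest p at both times, with log2 ratio changes of -1.29 (SE 0.08, limma adjusted p = 3.17e-07) and -1.56 (SE 0.08, adjusted p = 2.6e-08), and RUSC1-AS1 came next with 0.79 and 0.94 (SE 0.07 each, adjusted p = 2.43e-05 and 2.83e-06). At 24 h GABPB1-AS1 (1.23, SE 0.11, adjusted p = 6.06e-06), NECTIN3-AS1 (1.55, SE 0.15, adjusted p = 1.48e-05) and IDI2-AS1 (1.59, SE 0.21, adjusted p = 0.000473) followed.

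FGD5-AS1 and SEMA3F-AS1 had a changed ratio at 12 h with no edgeR call of their own. FGD5-AS1 was at 115 and 112 CPM in anti-M8nAb, against 119 and 115 CPM in IgG, with no call (edgeR adjusted p = 0.606). FGD5, an exchange factor of the GTPase Cdc42, was at 8.0 and 6.85 CPM in anti-M8nAb, against 18.6 and 17.3 CPM in IgG, and the ratio rose by 1.22 (SE 0.12, limma adjusted p = 2.98e-05). At 24 h the ratio change of FGD5-AS1 was -0.09, with no call (adjusted p = 0.787). SEMA3F-AS1 at 0.26 with no call beside the semaphorin SEMA3F at -0.84 gave a ratio change of 1.11 at 12 h (limma adjusted p = 0.00231), and at 24 h the ratio change was 0.28 with no call (adjusted p = 0.432). Among members called themselves at 12 h, GNAS-AS1 had a ratio change of -0.52 (adjusted p = 0.004) and NECTIN3-AS1 of 0.60 (SE 0.15, adjusted p = 0.0436).

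Between the times, the response at 24 h was above that at 12 h in 18 members and below it in 11, against 5.79% and 6.54% of all genes, and by at least 2-fold in 1 and 2 (1.14% and 1.56% of all genes). Leaving out IgG 12 h replicate 1 made these 8 and 6, and leaving out IgG 12 h replicate 2 made them 9 and 6. Without IgG 24 h replicate 1 there were 11 and 7, and the 11 below became 7 without either anti-M8nAb 12 h replicate 1 or anti-M8nAb 24 h replicate 1 and 6 without anti-M8nAb 12 h replicate 2. VIM-AS1 differed by 1.17 (SE 0.13, edgeR adjusted p = 1.89e-09), NECTIN3-AS1 by 0.94 (SE 0.12, adjusted p = 2.06e-07) and GABPB1-AS1 by 0.64 (SE 0.09, adjusted p = 2.79e-06). PXN-AS1, opposite the focal adhesion protein paxillin, rose by 0.71 at 24 h and 0.28 at 12 h, and PXN by 0.69 and 0.22. LAMTOR5-AS1, which spans a subunit gene of the Ragulator complex, rose by 0.76 at 24 h, with 0.17 and no call at 12 h, while LAMTOR5 rose by 0.28 and 0.25. On the other side, ZNF407-AS1 differed by -1.19 (SE 0.30, adjusted p = 0.00511), and OBI1-AS1 and THBS3-AS1 fell at 24 h, OBI1-AS1 by 1.12 (SE 0.16, adjusted p = 8.94e-08) and THBS3-AS1 by 1.08 (SE 0.24, adjusted p = 0.000258), beside OBI1, a ubiquitin ligase of replication origins, and THBS3, another thrombospondin, which both fell by 1.14. With the expected opposite reads subtracted, OBI1-AS1 had no call at 24 h (-1.02, adjusted p = 0.163).

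**Figure D5:**
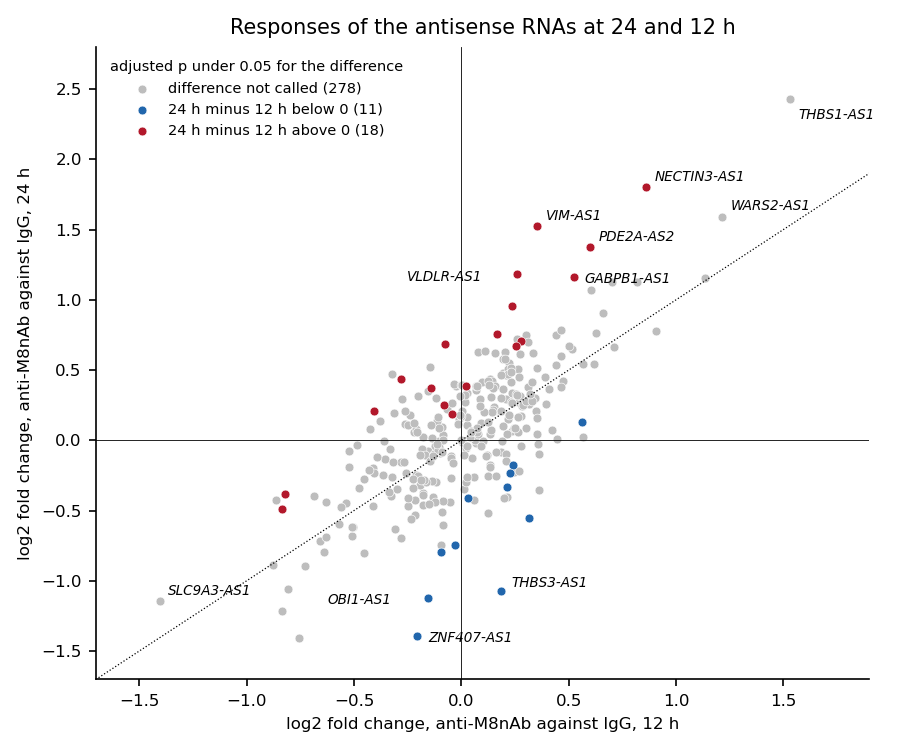
Log2 fold change of each of the 307 antisense RNAs at 24 h (vertical axis) against that at 12 h (horizontal axis), with members whose 2 responses differed coloured, 18 above the line of equal response and 11 below it. NECTIN3-AS1 at 1.80 and 0.86 and VIM-AS1 at 1.53 and 0.35 stand far above the line, and ZNF407-AS1 at -1.39 and -0.20 far below.

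Some members also moved with time in IgG alone, where 15 were higher and 22 lower at 24 h than at 12 h, against 7.01% and 6.64% of all genes. NECTIN3-AS1 rose by 0.54 (SE 0.09, edgeR adjusted p = 3.81e-05) while NECTIN3 fell by 0.49. GABPB1-AS1 fell by 0.43 (SE 0.07, adjusted p = 1.37e-05), WARS2-AS1 by 0.63 and IDI2-AS1 by 0.56. The 15 and 22 calls became 6 and 11 with IgG 12 h replicate 1 left out, 5 and 9 for IgG 12 h replicate 2, and 9 and 17 for IgG 24 h replicate 1. None of the changes with time in IgG reached 2-fold (all genes 0.947% higher and 0.377% lower).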

How the data were processed

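RNA of BG01 cells, in 2 libraries for each of 4 groups, was sequenced, and the members and lists here were chosen with earlier results of these data known. Per the paper's methods and the submitters' notes, the authors used Trimmomatic for trimming, STAR (2 passes, GRCh38.p14) for alignment, Picard for duplicates and HTSeq for counting, and the notes also name GATK and FastQC 0.11.9. Whether counting used strand, and how reads in several genes were treated, is not given in the sources used here. The authors deposited raw counts per gene and FPKM computed with RNAnorm. The 4 other columns of each table were not used.

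All 62086 gene identifiers matched GENCODE annotation of GRCh38 with the version left off, which gave symbols, strands and exons. A further 1005 lines with a blank name were left out of library sizes, the largest of the last 5 holding 49.3 to 50.2% of a library's counts and the lines before these 0.192 to 0.21%. Genes passing edgeR's filterByExpr, 20165 in all, were scaled by TMM and fitted over 8 libraries with a mean per group by edgeR 4.0.16 in R 4.3.3 (quasi-likelihood F test, two-sided, Benjamini-Hochberg over all genes tested, called at an adjusted p under 0.05). Changes are log2 fold changes, given for anti-M8nAb over IgG, for the response at 24 h minus that at 12 h, or for 24 h over 12 h in IgG. The common biological coefficient of variation was 5.53%, and the variance between replicates was 2.28 to 4.50 times that of counting alone (chi-square per degree of freedom). Ratios were tested with limma 3.58.1, taking a prior count of 2 for log2 CPM. The edgeR fit and the ratio test were tried on simulated counts, each for the comparison at 24 h alone, and the other fits were not.

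The rule for named members took the 8 highest in level, the 8 largest called changes on each side and time with separate libraries, the 5 smallest p on each side for the difference between times, the 3 nearest the count limit on each side, up to 6 opposite pairs a time and the 5 smallest p for ratios a time. Of these, 1 is not reported here. KLC1-AS1, ELF3-AS1 and FAM131B-AS2 were named after their values were seen. Alternatives were DESeq2 1.42.0 and its size factors, other filters, limma on log2 FPKM with a pseudocount of 1 or 0.1, each comparison's groups alone, a replicate block, and each library left out. Subtraction of the expected reads of the other strand and a crossed block were chosen after seeing the data.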

Additional observations from a re-analysis of the deposited data

Results flagged for a closer look

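The following members responded differently at 24 h and at 12 h by the edgeR test of the difference itself (adjusted p under 0.05), and the values are the log2 fold change of anti-M8nAb over IgG at 24 h minus that at 12 h. Above 0 were VIM-AS1 with 1.17, NECTIN3-AS1 with 0.94, VLDLR-AS1 with 0.92, PDE2A-AS2 with 0.78, GABPB1-AS1 with 0.64, PPP1R12A-AS2 with 0.62, LAMTOR5-AS1 with 0.59, PRC1-AS1 with 0.44, PXN-AS1 with 0.43, H1-10-AS1 with 0.35 and MIF-AS1 with 0.23. Below 0 were THBS3-AS1 with -1.26, ZNF407-AS1 with -1.19, OBI1-AS1 with -0.96, PRDM4-AS1 with -0.87, ZNF225-AS1 with -0.70 and NIFK-AS1 with -0.44. Among these, PDE2A-AS2 passed the count limit only through the antibody libraries (mean 94.5 counts in IgG). ZNF407-AS1 and PRDM4-AS1 passed it only through the IgG libraries (mean 78.0 and 94.5 counts in anti-M8nAb). For these members the values are a description.

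VLDLR-AS1, opposite the gene of a lipoprotein receptor, was at 11 and 12.2 CPM in anti-M8nAb at 24 h, against 5.77 and 4.45 CPM in IgG, and at 6.23 and 4.97 CPM in anti-M8nAb at 12 h, against 4.79 and 4.55 CPM in IgG. H1-10-AS1 and PRC1-AS1 fell at both times and by less at 24 h, at -0.49 against -0.84 for H1-10-AS1 and at -0.38 against -0.82 for PRC1-AS1, beside the linker histone gene H1-10 at -0.40 against -0.93 and the spindle midzone gene PRC1 at -0.45 against -0.90. The partners VIM, THBS3, OBI1, PRDM4, ZNF225, NIFK, VLDLR, PXN and H1-10 also differed between the times in the direction of their antisense gene, while no such call was made for NECTIN3, LAMTOR5, PDE2A, MIF, PRC1, PPP1R12A and ZNF407, and GABPB1 differed the other way. The difference lost its call without 1 library or more for PDE2A-AS2, PPP1R12A-AS2, VLDLR-AS1, PRC1-AS1, H1-10-AS1, MIF-AS1, THBS3-AS1, ZNF225-AS1, NIFK-AS1 and PRDM4-AS1.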

How the results depend on the processing

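With limma on log2(FPKM + 1), and likewise with a pseudocount of 0.1, 25 members were higher at 12 h and 57 at 24 h, the response differed upward in 8 and downward in 0, and in IgG 5 rose and 3 fell with time. Without a filter on FPKM these were 19 higher and 19 lower at 12 h, 32 higher at 24 h, 1 and 0 for the difference, and 2 and 1 with time. The count of 0 stands beside 11 by edgeR and 6 by DESeq2. Counts without a filter gave 7 and 2 for the difference and 7 and 14 with time. A change of at least 2-fold as well left 3 and 1 at 12 h, 11 and 7 at 24 h, 1 and 2 for the difference and 0 and 0 with time. Members of at least 200 mean counts, 193 in number, gave 21 lower at 12 h and 36 at 24 h. The 12 members sharing under 1% gave 4 and 0 at 12 h, 6 and 1 at 24 h, 1 and 1 for the difference, 1 and 1 with time, and ratios up and down in 2 and 0 at 12 h and in 3 and 1 at 24 h. Fewer genes or members enter the filtered settings, and otherwise the cause was not tested.

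Leaving out each library gave 27 to 50 higher and 21 to 40 lower at 12 h, 68 to 97 and 44 to 56 at 24 h, 8 to 16 and 6 to 8 for the difference, 5 to 17 and 9 to 24 with time, and for ratios 4 to 11 and 2 to 7 at 12 h and 7 to 19 and 4 to 9 at 24 h. With a replicate block 47 were higher and 37 lower at 12 h, 93 and 56 at 24 h, 18 and 9 for the difference and 15 and 22 with time. Deviations of replicates of one number had a correlation of 0.04 between the groups at 12 h and -0.16 at 24 h over 6611 genes. With 2 libraries a group these values cannot show whether libraries of one number share an origin, and the labels do not say. With the numbers of anti-M8nAb at 24 h crossed, 98 were higher and 57 lower at 24 h. With expected opposite reads subtracted, 284 members could be tested, 40 were higher and 38 lower at 12 h and 78 and 43 at 24 h. The direction then turned, with no call, for IER3-AS1 at 24 h (-1.57, edgeR adjusted p = 0.28), OBI1-AS1 in the difference (0.58, adjusted p = 0.791) and PPP1R35-AS1 at 12 h (0.019, adjusted p = 0.991). Over 92 results on 48 named members, 1468 of 1692 values under alternatives kept direction and call, 221 lost the call and 3 turned. Members near 100 counts and 2 libraries a group limit what can be called.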
